A study of Homo sapiens with 10 samples.

Results

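The annexins and S100A10 were taken as 10 genes, ANXA1, ANXA2, ANXA3, ANXA4, ANXA5, ANXA6, ANXA7, ANXA11, ANXA13 and S100A10, out of 60554 genes in the tables. They were found by gene symbol, and the estimated counts of all transcripts of a gene were added up. Of these 10 genes, 8 passed the filter on low values and were among the 11640 genes tested, while ANXA1 and ANXA6 did not pass. The measurements are 10 RNA-seq libraries of Caco-2, a human colon carcinoma line whose cells form an epithelium resembling enterocytes. The study asked what loss of the long non-coding RNA LHFPL3-AS2 does in these cells.

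All 10 libraries came from Caco-2 cells with a stable dCas9-KRAB construct, a Cas9 that binds DNA without cutting and carries a repressor domain, selected with puromycin as a monoclonal clone. The cells were then infected with a lentivirus that carried either guide g1 (3 libraries), guide g2 (2 libraries) or the empty guide plasmid gCtl (5 libraries). The guide vectors carried a U6 promoter and a hygromycin gene. The cells were seeded as monolayers. Every group therefore shares the clone, the dCas9-KRAB construct and the viral infection, and a difference from gCtl was measured in this clone alone. No label says whether libraries of a group came from separate cultures, so the p-values measure the spread between these libraries, which may be technical. The labels hold no replicate numbers, and the numbers used below only tell libraries apart.

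Between 3838803 and 8730468 estimated counts were deposited per library. The study reported, from qPCR normalised to GAPDH, that both guides depleted LHFPL3-AS2. In the libraries measured here GAPDH itself was lower with the guides. It stood at 162 to 405 CPM (counts-per-million scale) in gCtl, 95.1 to 101 in g1 and 72.7 to 147 in g2. The bearing of this on the qPCR result was not tested. In the counts of these libraries the targeted RNA went against the labels: LHFPL3-AS2 stood at 1.75, 0.734, 3.66, 1.68 and 3.17 CPM in gCtl, at 3, 3.8 and 2.19 in g1 and at 2.33 and 6.4 in g2, on 4 to 44 counts per library. It was not lower in any library labelled g1 or g2 than in every gCtl library, so each direction given below is between libraries labelled g1, g2 and gCtl. The epithelial markers listed for Caco-2 (EPCAM, CDH1, 3 keratins, VIL1, CDX2, HNF4A, FABP1 and APOA1) were all detected, and their summed level was 2260 to 3070 RPM (reads-per-million scale) in gCtl, 2150 to 2620 in g1 and 2270 to 2300 in g2. With edgeR, 0 of these 10 markers were called in g1 and g2 together against gCtl, with 3 at an unadjusted p under 0.05, where 19.2% of all genes tested were called. In g2 alone 1 of the 10, KRT18, was called lower (log2 -0.78, edgeR adjusted p = 0.0494), where 23.7% of all genes were called. Fibroblast markers summed to at most 10.9 RPM in any library, leukocyte markers to at most 31 and endothelial markers to at most 10.1.

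Annexins are proteins that bind acidic phospholipids of membranes when calcium rises, through a core of repeated annexin domains. They line the inner face of the plasma membrane and of vesicles, where they take part in exocytosis, endocytosis, the anchoring of actin and the resealing of torn membranes. S100A10, also called p11, is a small protein of the S100 family that does not need calcium to bind its partner, and it joins with ANXA2 in a tetramer that bridges membranes. In polarised epithelia ANXA2 with S100A10 is known at the apical membrane and at junctions, ANXA13 is known as an annexin of the intestine that is sorted to the apical side, and ANXA4 is known from secretory epithelia.

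The regions around the annotated starts of 3 genes are shown for reference, and no difference between groups rests on these regions: ANXA4, the annexin with the clearest difference, and the ANXA2 and S100A10 partners. Sequences were read from RefSeq on GRCh38.p14, 250 bases before and 50 bases after each start, 5′ to 3′ on the strand of the gene. Capitals mark matches, on either strand, to the TATA box TATAAA, the CCAAT box, the GC box GGGCGG and ATCAAAG, a core of sites of TCF/LEF factors. ANXA4 has 2 starts in this annotation, at chr2:69643558-69643857 and chr2:69741884-69742183 on the plus strand. The upstream window lies before the ANXA4 start in GENCODE v29, which is at 69644425. ANXA2 is shown at chr15:60397937-60398236 and S100A10 at chr1:151993810-151994109, both on the minus strand.
ANXA4, upstream start: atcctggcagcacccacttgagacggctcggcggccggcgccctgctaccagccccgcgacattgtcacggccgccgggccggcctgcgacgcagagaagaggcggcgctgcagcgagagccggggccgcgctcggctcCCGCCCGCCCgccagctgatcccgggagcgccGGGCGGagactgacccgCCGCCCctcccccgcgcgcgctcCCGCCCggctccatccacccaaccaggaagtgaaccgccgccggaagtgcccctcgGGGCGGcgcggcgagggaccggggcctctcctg
ANXA4, downstream start: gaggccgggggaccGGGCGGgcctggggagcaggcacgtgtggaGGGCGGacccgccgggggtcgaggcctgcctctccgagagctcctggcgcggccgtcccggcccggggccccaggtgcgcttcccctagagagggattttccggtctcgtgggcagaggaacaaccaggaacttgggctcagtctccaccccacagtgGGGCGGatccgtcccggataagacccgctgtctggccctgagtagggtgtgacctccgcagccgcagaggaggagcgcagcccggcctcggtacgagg
ANXA2: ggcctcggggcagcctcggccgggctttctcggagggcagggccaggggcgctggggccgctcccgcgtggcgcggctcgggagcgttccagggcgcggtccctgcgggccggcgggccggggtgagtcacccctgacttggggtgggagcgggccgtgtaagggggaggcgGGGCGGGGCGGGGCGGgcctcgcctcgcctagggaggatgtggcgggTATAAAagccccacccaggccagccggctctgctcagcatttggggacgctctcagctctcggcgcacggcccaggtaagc
S100A10: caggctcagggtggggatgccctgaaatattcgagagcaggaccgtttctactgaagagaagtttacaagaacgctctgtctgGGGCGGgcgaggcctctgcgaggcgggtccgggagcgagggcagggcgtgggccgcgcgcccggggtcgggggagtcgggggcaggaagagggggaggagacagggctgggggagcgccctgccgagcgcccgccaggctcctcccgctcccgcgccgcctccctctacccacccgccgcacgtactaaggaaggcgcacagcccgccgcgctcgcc

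GGGCGG was matched 6 times at the upstream start of ANXA4, 3 times at its downstream start, 3 times at ANXA2 and 1 time at S100A10, counting matches that overlap each other. It was present in 45% of all 35116 promoters of the same length. The ANXA2 window also held TATAAA, first base at position -31 from the start, a motif in 11.5% of all promoters. CCAAT, in 34.6% of promoters, had no match in the 4 windows shown. ATCAAAG, in 2.62% of promoters, had no match in any of the 13 windows of the 9 genes listed (those named above apart from ANXA13). Reads of these libraries start near the 3′ end of an RNA, so they do not show which start of ANXA4 was used.

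Levels of different genes were compared in gCtl as TPM (transcripts-per-million scale), which divides by transcript length. S100A10 (383 ± 126, SD, n = 5) and ANXA2 (381 ± 43.8) were the most abundant and their ranges overlapped, from 216 to 514 and from 321 to 436. ANXA11, an annexin of RNA granules and of lysosomes, followed at 132 ± 32.2, below every ANXA2 value. ANXA3, ANXA5 and ANXA7 came next at 32.7 ± 3.95, 32.7 ± 8.48 and 25 ± 3.63 TPM, with overlapping ranges. ANXA4 stood at 9.76 ± 1.38 TPM, below all libraries of those 3 genes, and ANXA13 at 3.87 ± 1.63, below every ANXA4 value. ANXA6 (1.75 ± 0.506) and ANXA1 (1.21 ± 0.757) were the lowest, and their ranges overlapped each other and, for both, that of ANXA13. In 3′ libraries a count does not grow with length, and on the RPM scale ANXA2 (503 ± 60.7) stood above S100A10 (189 ± 60.4) with no overlap, so the order of this pair depends on the scale. The places of ANXA11 and ANXA4 depend on it too. On RPM the gCtl range of ANXA11 (104 to 160) overlapped that of S100A10 (109 to 253). The gCtl range of ANXA4 on RPM, 20 to 26.8, overlapped those of ANXA5 (24.7 to 35.7) and ANXA7 (20.1 to 36.7), and not that of ANXA3 (32.7 to 47.4).

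**Figure D1:**
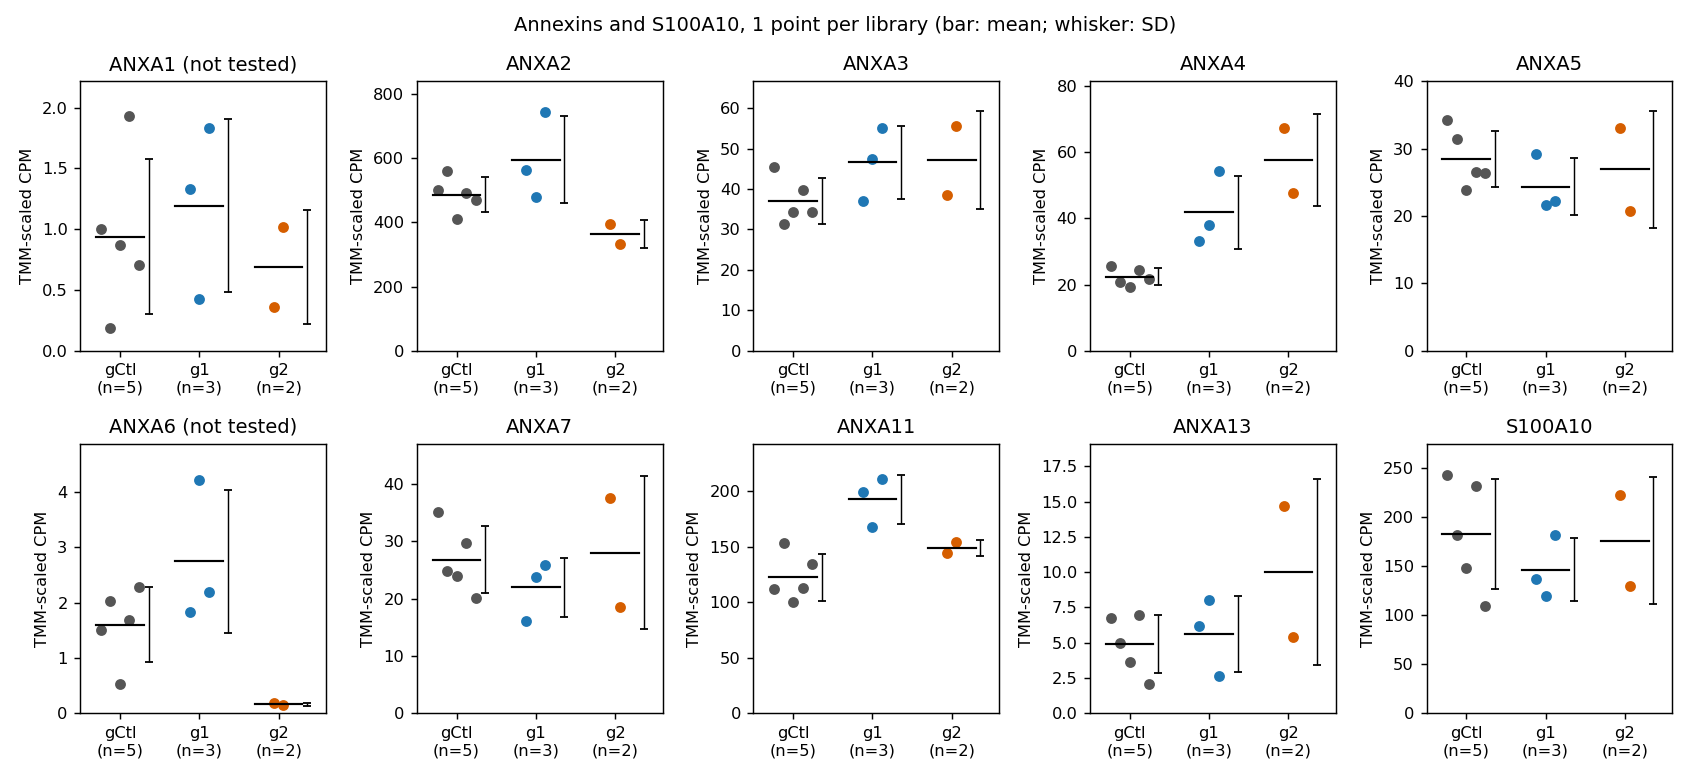
CPM (vertical axis, TMM-scaled) of the 10 genes, with 1 point per library in gCtl, g1 and g2, the mean as a bar and the SD as a whisker. ANXA4 is higher in all 5 libraries labelled g1 or g2 than in every gCtl library, ANXA2 is lower in both g2 libraries than in every gCtl library, and ANXA6 lies near 0 in both g2 libraries.

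The annexins and S100A10 were then compared between groups, in g1 and g2 together against gCtl, in each guide against gCtl, and in g2 against g1. The comparisons with gCtl use the same 5 gCtl libraries and are not independent of each other. A gene was called when edgeR's quasi-likelihood test gave an adjusted p of at most 0.05 over all 11640 genes and the fold change was at least 1.5. Values per library are CPM after TMM scaling, a scaling to the trimmed mean of the log ratios between libraries. In g1 and g2 together, 1 of the 8 tested genes was called, ANXA4 (higher), where 19.2% of all genes tested were called in either direction and 8.14% higher. Against gCtl, g1 had 2 called genes of 8, ANXA4 and ANXA11 (both higher), with 16.7% of all genes called, 6.81% higher. In g2 it was 1 of 8, ANXA4 (higher), with 23.7% of all genes called, 10.7% higher. Between g2 and g1, 0 of 8 were called by edgeR and 1 had an unadjusted p under 0.05, where 4.97% of all genes were called. DESeq2 and limma on log2(RPM + 1) each called 1 gene there, ANXA2. The median log2 fold change of the 8 genes was 0.19 in g1 and g2 together, 0.24 in g1, 0.17 in g2 and 0.20 in g2 against g1, against medians over all genes of 0.02, 0.01, 0 and 0.01. The count of called genes among the 8 was thus not far from the share over all genes, and the values of the single genes follow.

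ANXA4, a calcium-dependent annexin of secretory epithelia, was higher in the libraries labelled g1 and g2. It is on chromosome 2 (69644425 to 69827100, plus strand, GRCh38, GENCODE v29). Its level was 25.7, 20.7, 19.4, 24.5 and 21.8 CPM in gCtl, 33.3, 38 and 54.2 CPM in g1, and 67.4 and 47.7 CPM in g2. The groups did not overlap, since the lowest g1 library was above the highest gCtl library. ANXA4 rose 2.15-fold in g1 and g2 together against gCtl (log2 fold change 1.11, SE 0.18, edgeR adjusted p = 0.000951). Each guide alone gave the same direction, with 1.88-fold in g1 (log2 0.91, SE 0.18, edgeR adjusted p = 0.00316) and 2.57-fold in g2 (log2 1.36, SE 0.20, edgeR adjusted p = 0.000271). The difference of g2 from g1 was 0.45 on the log2 scale with a 95% confidence interval of -0.02 to 0.92 and did not pass (edgeR adjusted p = 0.256). Groups without overlap, higher, were found for 7.13% of all genes tested in g1 and g2 together, for 13.1% in g1 and for 18.2% in g2. RNA was measured from pools of cells, so a higher level in every cell and a larger share of cells with the RNA cannot be told apart. A test against a fold change of 1.5 rather than 0 (glmTreat) kept ANXA4 in g1 and g2 together and in g2, and not in g1 (adjusted p = 0.176).

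ANXA11, which tethers RNA granules to lysosomes and has binding sites for the small calcium protein PDCD6, was higher with g1. Its level was 112, 153, 100, 113 and 134 CPM in gCtl, 199, 168 and 211 CPM in g1, and 144 and 154 CPM in g2. All g1 libraries were above all gCtl libraries, while the g2 libraries lay near the upper end of gCtl and below every g1 library. The rise with g1 was 1.57-fold (log2 0.65, SE 0.15, edgeR adjusted p = 0.00704). The difference of g2 from gCtl was 0.28 (SE 0.17, edgeR adjusted p = 0.248), and that of g2 from g1 was -0.38 with an interval of -0.78 to 0.03 (edgeR adjusted p = 0.279), so a difference between the guides was not shown. In g1 and g2 together the 1.43-fold difference had an edgeR adjusted p of 0.0239 and missed the fold minimum, and it was called when gCtl replicate 2, the highest gCtl library, was left out (log2 0.61). Without g1 replicate 3 the g1 difference was 0.56 on the log2 scale and was not called. On TPM the difference in g1 was 0.26 and not called (limma adjusted p = 0.43), and the differences for ANXA11 were -0.08 in g1 and g2 together and -0.59 in g2, and the transcript estimates behind that are given below.

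**Figure D2:**
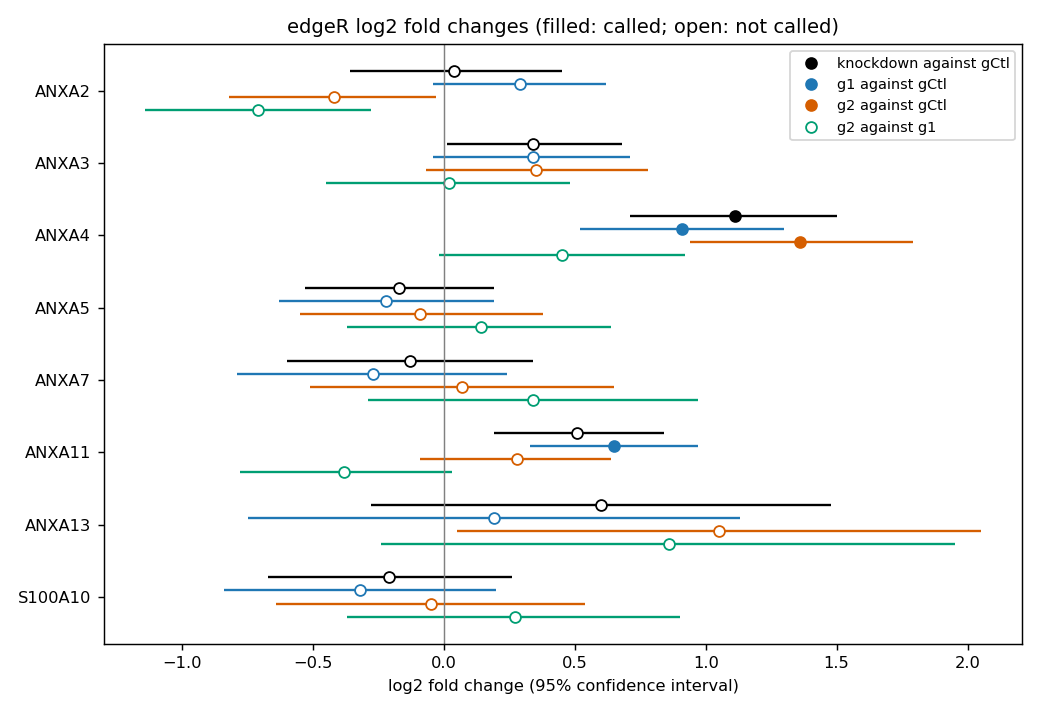
Log2 fold changes from edgeR (horizontal axis) with 95% confidence intervals for the 8 tested genes in 4 comparisons, filled where called and open where not. ANXA4 is called in the 3 comparisons with gCtl, ANXA11 in g1 alone, and the interval of ANXA2 in g2 against g1 lies below 0 without a call.

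ANXA2, the abundant annexin that pairs with S100A10, was lowest in g2. It is on chromosome 15 (60347134 to 60402883, minus strand, GRCh38, GENCODE v29). Its level was 502, 561, 410, 492 and 469 CPM in gCtl, 564, 478 and 743 CPM in g1, and 394 and 332 CPM in g2. Both g2 libraries were below every other library, whereas g1 overlapped gCtl and held the highest library. Groups without overlap, lower, were found for 19.7% of all genes tested in g2 against gCtl and for 17.3% in g2 against g1. The log2 difference was 0.04 in g1 and g2 together (SE 0.19, edgeR adjusted p = 0.888), 0.29 in g1 (SE 0.16, edgeR adjusted p = 0.211) and -0.42 in g2 (SE 0.19, edgeR adjusted p = 0.103). Between g2 and g1 it was -0.71, with an interval of -1.14 to -0.28, and just missed the threshold (edgeR adjusted p = 0.0535). That difference was called with DESeq2, with limma, with library totals in place of TMM, with no filter, and without g1 replicate 2, where it was -0.85. Its adjusted p ranged from 0.0141 to 0.916 over the alternatives, the highest from glmTreat.

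ANXA2 made up most of the annexin RNA. Its share of the summed counts of the 9 annexins was 65.7, 67.6, 66.5, 66.8 and 66% in gCtl, 63.6, 60.5 and 66.4% in g1, and 54.1 and 52.2% in g2. The gCtl libraries spanned less than 2 percentage points, and both g2 libraries were lower than all others. The summed annexin level itself was 638 to 867 RPM in gCtl, 804 to 1050 in g1 and 596 to 664 in g2. The g2 libraries also stood apart in composition, with 16.8 and 12% of counts from mitochondrial genes, against 18.3 to 24% in gCtl and 19 to 20.6% in g1. The 20 most abundant genes took 45.2 and 40.5% of counts in g2, 31.5 to 37.1% in gCtl and 31.3 to 40.1% in g1. The part of this composition in the g2 values of ANXA2 and the other annexins was not tested.

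S100A10 did not differ between groups beyond the spread of its libraries. The gene is on chromosome 1 (151982915 to 151994390, minus strand, GRCh38, GENCODE v29). Its level was 243, 182, 148, 232 and 109 CPM in gCtl, 137, 120 and 182 CPM in g1, and 222 and 130 CPM in g2. The gCtl libraries alone spanned the whole range, and the lowest of all libraries was gCtl replicate 5. The log2 difference in g1 and g2 together was -0.21 with an interval of -0.67 to 0.26 (edgeR adjusted p = 0.525). It was -0.32 in g1, -0.05 in g2 and 0.27 in g2 against g1, and none of these was called by edgeR (adjusted p = 0.383, 0.907 and 0.658).

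Taken within each library, the counts of S100A10 per 100 counts of ANXA2 do not depend on scaling. They were 48.4, 32.4, 36.1, 47.2 and 23.2 in gCtl, 24.3, 25.1 and 24.4 in g1, and 56.4 and 39.3 in g2. The g1 libraries were close to each other and to gCtl replicate 5, and below the other 4 gCtl libraries, while both g2 libraries were above every g1 library. The mean was 33.9 ± 14.1 (SD, n = 5) in g1 and g2 together and 37.5 ± 10.6 (SD, n = 5) in gCtl, a log2 difference of -0.18 (exact two-sided permutation test, p = 0.548, smallest possible 0.00794). In g1 alone the log2 difference from gCtl was -0.56 (exact permutation p = 0.143) and in g2 alone 0.38 (exact permutation p = 0.381, smallest possible 0.0952). The ratio was 1.91-fold higher in g2 than in g1 (exact permutation p = 0.2, the smallest that 2 against 3 libraries allow). Adjusted over these 4 comparisons, the p-values of the exact tests were 0.548, 0.4, 0.508 and 0.4. Without gCtl replicate 5 the log2 difference in g1 and g2 together was -0.34 (exact permutation p = 0.254).

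**Figure D3:**
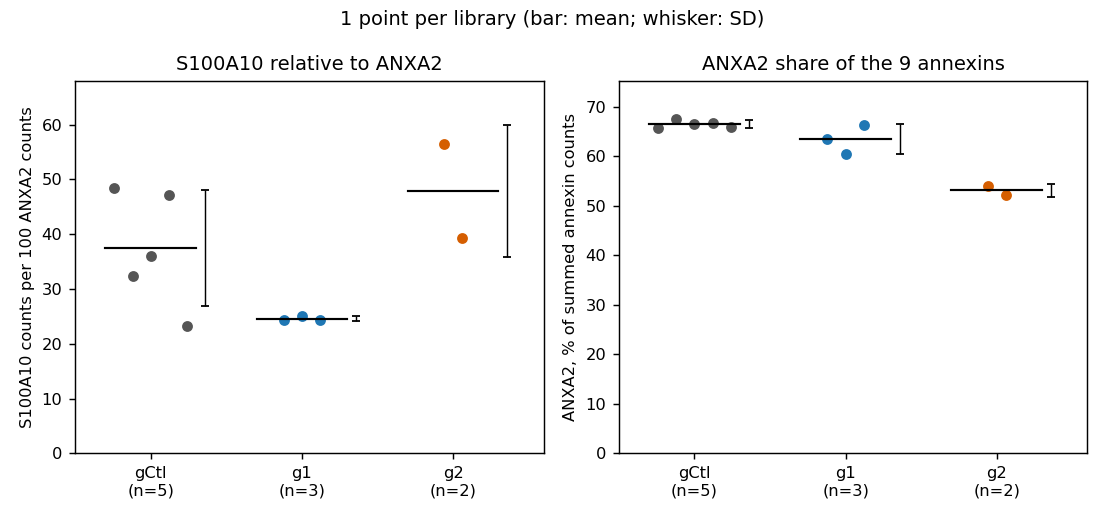
S100A10 counts per 100 ANXA2 counts (left) and the percentage of ANXA2 in the summed counts of 9 annexins (right), 1 point per library, with the mean as a bar and the SD as a whisker. The 3 g1 libraries lie between 24.3 and 25.1 on the left, and the g2 libraries lie at 54.1 and 52.2% on the right, below all others.

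ANXA3, ANXA5 and ANXA7 were not called in any comparison. ANXA3, an annexin found in neutrophils and several carcinomas, ranged from 31.4 to 45.5 CPM in gCtl, 37 to 55.2 in g1 and 38.5 to 55.7 in g2. Its log2 difference in g1 and g2 together was 0.34 with an interval of 0.01 to 0.68, and did not pass after adjustment (edgeR adjusted p = 0.125). ANXA5, which binds exposed phosphatidylserine and is used as a stain for dying cells, ranged from 23.9 to 34.2 CPM in gCtl, 21.7 to 29.2 in g1 and 20.8 to 33 in g2 (log2 -0.17, interval -0.53 to 0.19, edgeR adjusted p = 0.507). ANXA7, once named synexin for its part in granule fusion, ranged from 20.1 to 35.2 CPM in gCtl, 16.2 to 25.9 in g1 and 18.6 to 37.5 in g2 (log2 -0.13, interval -0.60 to 0.34, edgeR adjusted p = 0.704). In all 3 genes the groups overlapped, and the intervals reach differences near 1.5-fold in 1 direction.

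ANXA13, the intestinal annexin, was low and variable. Its level was 6.75, 4.96, 3.66, 6.98 and 2.11 CPM in gCtl, 6.16, 8.02 and 2.68 CPM in g1, and 14.7 and 5.38 CPM in g2. A single library, g2 replicate 1 with 82 counts, was above all others, and the remaining g2 library lay within gCtl. The log2 difference of g2 from gCtl was 1.05 with an interval of 0.05 to 2.05 (edgeR adjusted p = 0.109), and it was 0.60 in g1 and g2 together (edgeR adjusted p = 0.307) and 0.19 in g1 (edgeR adjusted p = 0.798). Without g2 replicate 2 the g2 difference was 1.62 and was called, and without g2 replicate 1 it was 0.16, so 1 library decided the value.

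ANXA6 and ANXA1 were too low to be tested with the filter used. ANXA6, a long annexin of the plasma membrane and late endosomes, had 6, 11, 3, 7 and 13 counts in gCtl, 11, 20 and 18 in g1, and 1 and 1 in g2. Both g2 libraries were below all others, at totals of 6130698 and 7325087 estimated counts, above those of all gCtl libraries. Over the group totals the rate in g2 was 0.0902 of that in gCtl, with an exact 95% interval of 0.0106 to 0.348, and 0.058 of that in g1 (0.00684 to 0.221), both for counting error only. With no filter beyond 1 count, edgeR over 16904 genes gave an adjusted p of 0.0149 for g2 against gCtl and 0.00954 for g2 against g1, and filterByExpr also kept and called ANXA6 in both. The g2 libraries, at 1 count each, could not carry ANXA6 past filterByExpr. It passed through gCtl and g1 libraries, where it is higher, so its lower level in g2 was favoured by that filter. ANXA1, an annexin that binds formyl peptide receptors and dampens inflammation, had 1 to 8 counts in gCtl, 2 to 15 in g1 and 2 to 7 in g2. At this depth no difference of ANXA1 was detectable (edgeR without a filter, adjusted p = 0.88 in g1 and g2 together).

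Kallisto divides a gene's reads among its transcripts, and the estimates differed in how concentrated they were. ANXA2-001 held 95.3% of the ANXA2 counts and S100A10-002 held 93.9% of the S100A10 counts, so these sums rest on 1 transcript each. For ANXA4 the protein-coding ANXA4-001 held 59.3%, from 42.1 to 73.2% in gCtl, 52.6 to 59.2% in g1 and 60 to 74.2% in g2. Most ANXA11 counts were on ANXA11-201 (64.9%), and ANXA11-012, a processed transcript of 377 bases, held 18.3 to 24.6% in gCtl, 8.8 to 16% in g1 and 3.4 to 11.5% in g2. Since TPM divides by length, the smaller share of this short transcript lowers the TPM of ANXA11 in g1 and g2 relative to its counts. In ANXA7 the processed transcript ANXA7-003 was at 0 in 4 gCtl libraries and 5.2% in gCtl replicate 5, at 31.3, 24.8 and 31.7% in g1, and at 0 and 27.9% in g2. These shares are estimates from reads at the 3′ end, no test was made on them, and the g2 libraries did not share 1 pattern.

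The remaining annexins of the family were taken from a list of 5 symbols, of which 4 were in the tables and 2 were tested. Both were called lower in g1 and g2 together against gCtl, where 11% of all genes were called lower. ANXA8L1 had 10, 9.91, 8.02, 9.39 and 7.74 CPM in gCtl, 6.33, 6.12 and 4.51 in g1, and 2.33 and 2.47 in g2, without overlap of the groups. Groups without overlap, lower, were found for 8.33% of all genes tested in g1 and g2 together. ANXA8L1 fell by 1.05 on the log2 scale there (edgeR adjusted p = 0.0175) and by 1.89 in g2 (edgeR adjusted p = 0.000834), while its difference of -0.68 in g1 was not called (edgeR adjusted p = 0.0677). ANXA8L1 passed the filter on low values only through gCtl and g1 libraries, so its lower level in g2 was favoured by the filter. ANXA8L1 and ANXA8 are near-identical copies, so their reads may be divided wrongly. ANXA8 had 1 to 7 counts in gCtl, 4 to 9 in g1, and 9 and 27 in g2. Summed as 1 gene, the pair differed by -0.69 on the log2 scale in g1 and g2 together (edgeR adjusted p = 0.0372), by -0.54 in g1 (edgeR adjusted p = 0.138, not called) and by -0.93 in g2 (edgeR adjusted p = 0.0316). ANXA9, an annexin that has lost calcium-binding residues, had 17, 31, 19, 15 and 5 counts in gCtl, 6, 4 and 7 in g1, and 7 and 7 in g2, and fell by 1.81 on the log2 scale in g1 and g2 together (edgeR adjusted p = 0.00989). The low gCtl library, replicate 5, overlapped the g1 and g2 libraries. ANXA9 passed the filter on low values only through gCtl libraries, where it is high, so its lower level in g1 and g2 was favoured by the filter. ANXA10 had at most 5 counts in any library and was not tested.

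S100A10 was set beside the other S100 proteins, small calcium-binding proteins several of which also bind annexins. Of 18 in the list, 9 were tested, and in g1 and g2 together S100P was called higher and S100A6, S100A11, S100A14 and S100A16 lower, where 8.14% of all genes tested were called higher and 11% lower. With g1 alone 1 was called higher and 6 lower, and with g2 alone 1 higher and 2 lower, where 9.91% and 13% of all genes were called lower. S100A2, among the 6, and S100A9, which was not called, passed the filter on low values through gCtl libraries only, which favoured lower values in g1 and g2. S100A4, also among the 6, passed through gCtl and g2 libraries only, which favoured a lower value in g1. The median of the 9 log2 fold changes in g1 and g2 together was -0.88, against 0.02 over all genes. That median is the value of S100A2 itself, and S100A9 stood at -0.91, so the filter bears on it. With gCtl replicate 5 left out, 1 was higher and 4 were lower of 8 tested. S100A14, found at epithelial cell borders, had 35.5, 21.5, 35.9, 32.7 and 21.6 CPM in gCtl, 7.83, 5.7 and 10.4 in g1, and 11.7 and 10 in g2, and fell by 1.68 on the log2 scale (edgeR adjusted p = 0.000193). S100P, a secreted S100 protein of tumours, went the other way, from 9.15 to 12.3 CPM in gCtl to 13.1 to 41 in g1 and 28.2 to 38.7 in g2 (2.51-fold, edgeR adjusted p = 0.00346). In both genes no g1 or g2 library overlapped gCtl, but a call without overlap was the condition for naming genes of this list and of the further lists. The absence of overlap is therefore no added support for S100A14 and S100P. The same holds for PDCD6, HLTF, MYOF, ESYT1, CPNE8 and CPNE7 below.

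The next 3 S100 genes did not meet the condition for naming and were chosen after their values were seen. S100A11, a partner of ANXA1 whose gene lies 38.1 kb from S100A10, fell by 1.59 on the log2 scale in g1 and g2 together (edgeR adjusted p = 0.00889), from 30, 31.2, 16.6, 21.7 and 8.09 CPM in gCtl to 5.5, 6.54 and 13.8 in g1 and 6.45 and 2.76 in g2, with 1 g1 library above the lowest gCtl library. S100A6 was at 218, 104, 116, 181 and 40.8 CPM in gCtl, 19.8, 18.6 and 22.5 in g1, and 83.5 and 42.3 in g2, and fell by 1.82 (edgeR adjusted p = 0.00855). For both genes gCtl replicate 5 was the lowest gCtl library, as it was for S100A10 and ANXA9. S100A4, a motility-linked S100 protein, was at 13.5, 11.2, 13.4, 11.1 and 7.56 CPM in gCtl, 2.33, 2.53 and 1.34 in g1, and 16.5 and 13.8 in g2. It fell by 2.49 on the log2 scale in g1 (edgeR adjusted p = 0.000127), while its difference in g2 was 0.42 (edgeR adjusted p = 0.275), and g2 was higher than g1 by 2.90 (edgeR adjusted p = 0.000398). S100A4 passed the filter on low values only through gCtl and g2 libraries, where it is high. Its lower level in g1 was therefore favoured by the filter.

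**Figure D4:**
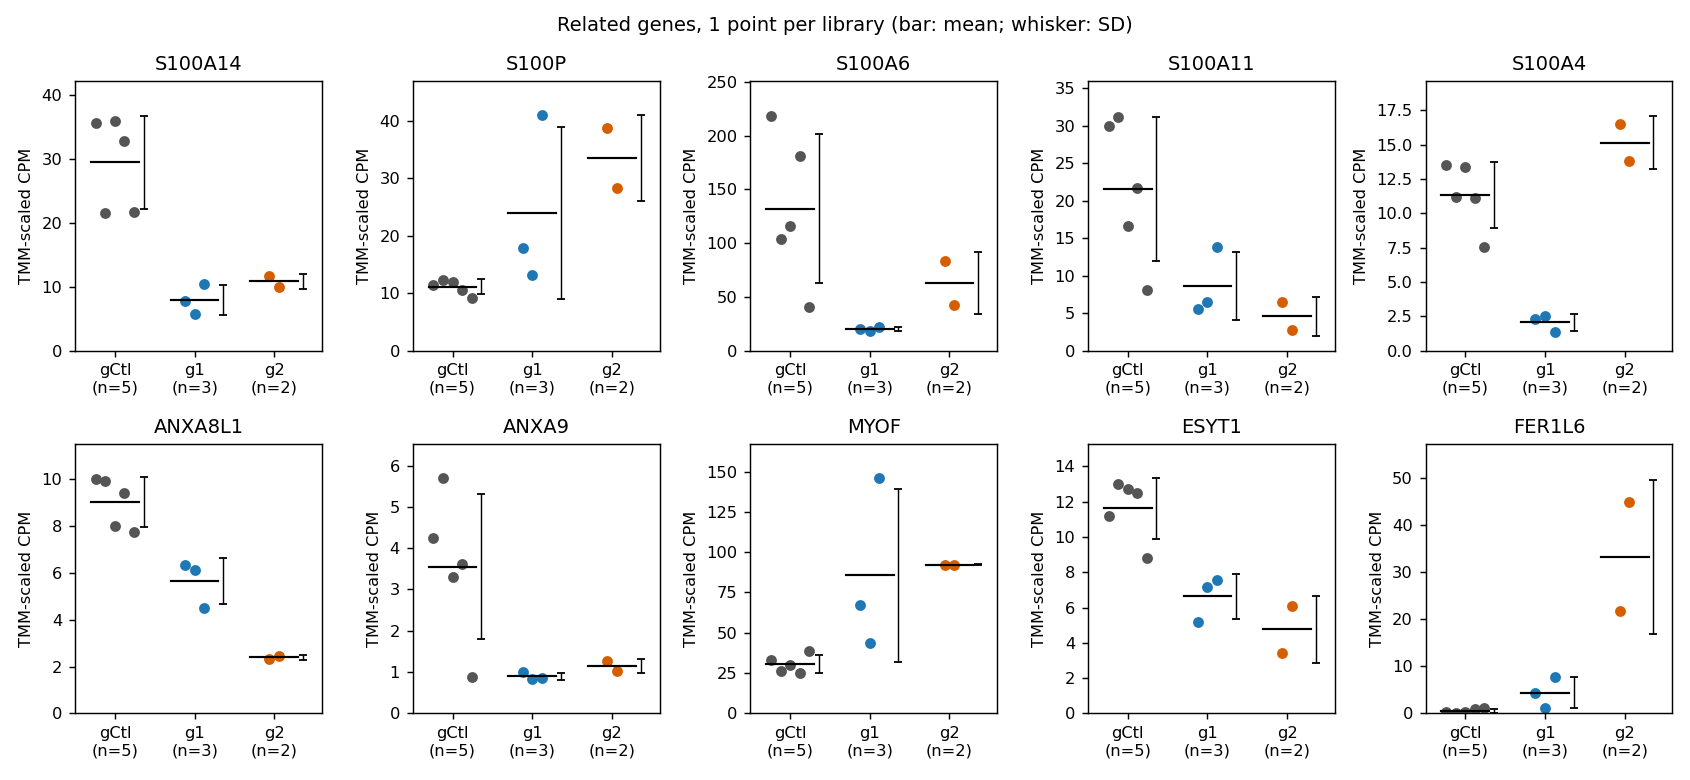
CPM (vertical axis, TMM-scaled) of 10 related genes by library in gCtl, g1 and g2, with the mean as a bar and the SD as a whisker. S100A4 is low in the 3 g1 libraries alone, FER1L6 is highest in the 2 g2 libraries, and MYOF is above every gCtl library in all 5 g1 and g2 libraries.

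Among 20 known binding partners of annexins or of S100A10, 13 were tested, and 0 were called higher and 5 lower in g1 and g2 together (median log2 fold change -0.42), where 8.14% of all genes tested were called higher and 11% lower. S100A6 and S100A11 are 2 of these 5 and were counted above too. PDCD6, the calcium sensor ALG-2 that binds ANXA7 and ANXA11, was at 21.5 to 29.1 CPM in gCtl and 14.1 to 18.6 in the g1 and g2 libraries, without overlap. It fell by 0.59 on the log2 scale (edgeR adjusted p = 0.0121), a call that was lost without gCtl replicate 1, 2 or 4, g1 replicate 1 or g2 replicate 2, in each case with a log2 difference between -0.58 and -0.53 that stayed below 0 but missed the fold minimum. PEF1, the partner of PDCD6, was at 2.29 to 6.5 CPM in gCtl and 0.833 to 2.33 in the others and fell by 1.34 (edgeR adjusted p = 0.0174), a call lost without gCtl replicate 1. It passed the filter on low values only through gCtl libraries, where it is high, overlapped in 1 library and was chosen after its values were seen. HLTF, a DNA translocase with a helicase-like domain that is in the list as a partner of S100A10 with ANXA2, fell by 0.64 (edgeR adjusted p = 0.00397), from 90.9 to 121 CPM in gCtl to 56.4 to 80.8, and the call was lost without gCtl replicate 2, where it was -0.57. AHNAK, the large scaffold held by that complex, had a log2 difference of 0.11 in g1 and g2 together (edgeR adjusted p = 0.75). It was -0.26 in g1, 0.53 in g2 and 0.79 in g2 against g1, none of them called (edgeR adjusted p = 0.389, 0.0851 and 0.0712). CFTR, a chloride channel that binds S100A10 with ANXA2, had a difference of 0.08 in g1 and g2 together (edgeR adjusted p = 0.746).

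Other proteins that bind membranes with calcium or help to reseal them formed a list of 27 genes, of which 20 were tested. In g1 and g2 together 4 rose and 3 fell past the thresholds, where 8.14% of all genes tested were called higher and 11% lower, and the list had a median of 0.06 on the log2 scale. The balance turned with the scaling, to 2 higher and 4 lower with library totals or limma on RPM, and was 3 higher and 0 lower on TPM and 2 and 0 with glmTreat. MYOF, a ferlin of membrane fusion and repair, had 33, 26.3, 30.2, 25.3 and 38.7 CPM in gCtl, 67.1, 43.5 and 146 in g1, and 92 and 92.3 in g2. It rose 2.88-fold (log2 1.52, SE 0.25, edgeR adjusted p = 0.000847) with no overlap, and by 1.49 and 1.58 on the log2 scale in g1 and g2 alone. ESYT1, which ties the endoplasmic reticulum to the plasma membrane, fell by 0.98 (edgeR adjusted p = 0.00843) and was lower in all 5 g1 and g2 libraries than in every gCtl library. The copines CPNE8 and CPNE7, calcium-dependent phospholipid-binding proteins, fell by 1.25 and 1.19 (edgeR adjusted p = 0.0126 and 0.0241), the latter not without gCtl replicate 1. CPNE7 passed the filter on low values only through gCtl libraries, where it is high. CPNE8 was above 3 RPM in every gCtl library and, outside gCtl, in g1 replicate 1 alone (3.65 RPM). It too needed gCtl to pass, so the lower level of both copines was favoured by the filter. CHMP4A and TRIM72, which act in membrane resealing, were called higher by 0.59 and 0.67, and were chosen after their values were seen. The call of CHMP4A was lost without gCtl replicate 1, 3 or 4, g1 replicate 2 or 3, or g2 replicate 2, and that of TRIM72 without gCtl replicate 1 or 2 or g2 replicate 2. Both calls were also lost with library totals, limma on RPM and glmTreat. In addition, TRIM72 was not called on TPM, nor CHMP4A when genes that are not protein-coding were tested too.

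FER1L6, a ferlin gene 115 kb from ANXA13, had the largest difference of that list and was chosen after its values were seen. It had 1, 0, 2, 4 and 6 counts in gCtl, 26, 5 and 63 in g1, and 121 and 308 in g2. The g2 libraries were above all others, and g1 overlapped gCtl in 1 library. It passed the filter on low values only through g1 and g2 libraries, where it is high, so a difference from gCtl was favoured by the filter. The log2 difference was 3.08 in g1 (edgeR adjusted p = 0.00378) and 5.94 in g2 (edgeR adjusted p = 9.76e-06), on a gCtl group of few counts, and g2 was higher than g1 by 2.86 (edgeR adjusted p = 0.00576), a call that was lost without g2 replicate 2, where it was 2.27. ANXA13 was highest in g2 replicate 1 and FER1L6 in g2 replicate 2, so the 2 neighbouring genes did not peak in the same library.

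**Figure D5:**
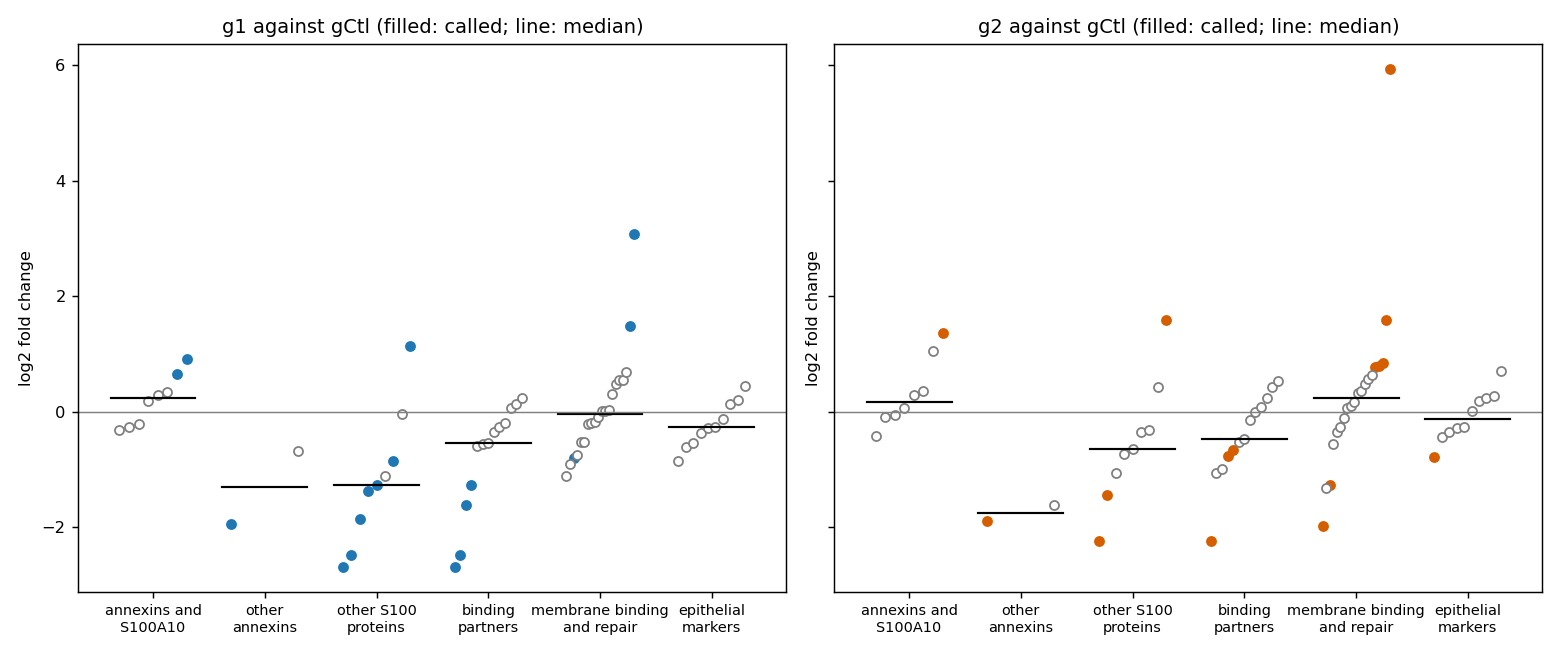
Log2 fold changes from edgeR (vertical axis) of the tested genes in each list for g1 (left) and g2 (right) against gCtl, filled where called, with the list's median as a line. The 8 tested annexins and S100A10 lie between -0.42 and 1.36, the other S100 proteins lie mostly below 0, and FER1L6 is the highest point of both panels.

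The genes outside these lists whose pattern over the 10 libraries was nearest to that of ANXA2, by Euclidean distance of log2(CPM + 1) centred on each gene's mean, were ZBTB33 (0.361), RAB35 (0.383) and MAST2 (0.43). Nearest to S100A10 were TCEB1 (0.42), UBE2B (0.421) and AJUBA (0.514). ANXA2 and S100A10 were 1.42 apart on this measure. Of the 11639 other genes tested, S100A10 was number 5278 in nearness to ANXA2, and ANXA2 was number 3226 in nearness to S100A10. Among the members tested, ANXA7 was nearest to S100A10, at number 36, and the others were at 455 to 9210. These distances describe 10 libraries, and the values compared share the depth and scaling of each library.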

How the data were processed

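RNA of 10 Caco-2 libraries was sequenced from the 3′ end (QuantSeq, single reads). Per the labels and the study's methods, the authors aligned reads with Kallisto (42.5 in the submitters' processing notes) to GENCODE transcripts and deposited estimated counts and TPM per transcript. Some estimated counts are fractions. Here the estimated counts were summed per gene and rounded. The TPM values given here were computed from the estimated counts and the full annotated transcript lengths, and are not Kallisto's own. Depth was 3838803 to 8730468 estimated counts, and counting intervals cover counting error only. Within a group, pairs of libraries differed by more than sampling noise (chi-square per degree of freedom 4.78 to 29.9), and none were identical.

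Protein-coding genes above 3 RPM in at least 2 libraries (20%) were tested, 11640 in all. Tests used edgeR 4.0.16 (R 4.3.3) with TMM scaling and Benjamini-Hochberg adjustment, in a fit of g1 and g2 together against gCtl and in a fit with 3 groups for the other comparisons. Calls required 1.5-fold or more in either direction together with an adjusted p no higher than 0.05. The study used this filter and these thresholds in other software. It called fewer genes than the 2232 called here in g1 and g2 together, and a larger share of them were lower. The shares over all genes given here are therefore not the study's. The ratio of S100A10 to ANXA2 was tested by exact permutation (scipy 1.17.1). Alternatives were DESeq2 1.42.0, limma 3.58.1 on log2(value + 1) of RPM or TPM, other scalings and filters, glmTreat, and leaving out each library. Library sizes over the tested genes and the sum of ANXA8 and ANXA8L1 were added after seeing the data. On simulated data with 200 of 11640 genes changed 3-fold, edgeR recovered 92% in g1 and g2 together, 86% in g1, 78.5% in g2 and 73.5% in g2 against g1. It made 6, 14, 4 and 9 false calls there, in the same order. These rates are for 3-fold changes, which none of the 8 members tested reached, and do not apply to smaller differences.

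Named genes were the 10 genes, the remaining annexins, up to 4 called genes without overlap from each further list, and the 3 nearest to ANXA2 and to S100A10. The members and lists were chosen with earlier results of these data known. Promoter windows came from RefSeq (GRCh38.p14), matched by symbol for 9 of the 10 genes.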

Additional observations from a re-analysis of the deposited data

Results flagged for a closer look

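Between g2 and g1, S100A4 differed by 2.90 on the log2 scale (95% confidence interval 2.18 to 3.63, edgeR adjusted p = 0.000398), since it was low in the 3 g1 libraries only. No g1 library of S100A4 passed the filter on low values. It entered the test only through gCtl and g2 libraries, where it is high, so this difference was favoured by the filter. FER1L6 differed by 2.86 in the same direction (1.74 to 3.98, edgeR adjusted p = 0.00576), and it entered the test only through libraries of g1 and g2, since no gCtl library passed the filter on low values. SYT7, a synaptotagmin of lysosome exocytosis that was chosen after its values were seen, differed by 1.54 (0.87 to 2.21, edgeR adjusted p = 0.0103). These 3 tests compare the guides directly, and a difference between the guides and one between the libraries that carry them cannot be told apart.

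For ANXA6, all 3 g1 libraries lay above the gCtl mean and both g2 libraries below it, with means of 2.75 and 0.162 CPM, a ratio of -4.08 on the log2 scale. With the filter used this difference was not tested. In the fit of 16904 genes without that filter it was -3.91 (edgeR adjusted p = 0.00954).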

How the results depend on the processing

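No paired analysis was possible because the labels carry no replicate numbers. ANXA4 was called in g1 and g2 together and in g2 under every alternative run, with log2 differences of 0.94 to 1.21 and 1.09 to 1.60. Called genes among the annexins and S100A10 numbered 1 in g1 and g2 together, 2 with no fold minimum, and 1 to 2 with 1 library left out. In g1 the 2 calls became 1 on TPM, 0 with glmTreat and 1 to 2 with 1 library left out. In g2 the 1 call became 2 with library totals, TPM (ANXA2), filterByExpr and no filter (ANXA6), and 1 to 2 with 1 library left out. Between g2 and g1 the 0 calls became 1 with library totals, DESeq2, limma on RPM or TPM (ANXA2) and filterByExpr (ANXA6), 2 with no filter, and 0 to 1 with 1 library left out.

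Of 736 values of single members under alternatives, 32 changed sign, all of them uncalled in the reported fit. With library totals these were ANXA2 in g1 and g2 together (-0.04), ANXA7 in g2 (-0.10) and ANXA3 in g2 against g1 (-0.08), and limma on RPM gave -0.10, -0.14 and -0.10 for the same. On TPM, ANXA2 (-0.08), ANXA5 (0.04) and ANXA11 (-0.08) changed sign in g1 and g2 together, ANXA5 (0.00) and ANXA7 (0.15) in g1, ANXA5 (0.11), ANXA7 (-0.27) and ANXA11 (-0.59) in g2, and ANXA3 (-0.23) and ANXA7 (-0.42) in g2 against g1. With 1 library left out, the ranges crossed 0 for ANXA2 in g1 and g2 together (-0.15 to 0.15) and for ANXA13 in g1 (-0.14 to 0.54). In g2 they did so for ANXA5 (-0.46 to 0.22), ANXA7 (-0.52 to 0.50) and S100A10 (-0.49 to 0.29). In g2 against g1 they did so for ANXA3 (-0.26 to 0.26), ANXA5 (-0.22 to 0.46), ANXA7 (-0.24 to 0.78), ANXA13 (-0.02 to 1.44) and S100A10 (-0.16 to 0.62). The log2 difference from gCtl in the ratio of S100A10 to ANXA2 was -0.18 in g1 and g2 together, between -0.39 and -0.08 there with 1 library left out, and 0.38 in g2 alone. The cause was not tested. Of 1266 values of related genes, 110 lost and 24 gained a call and 0 changed sign.

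Over all genes, glmTreat called 488 in place of 2232 in g1 and g2 together, 506 in place of 1947 in g1, 802 in place of 2756 in g2 and 92 in place of 579 in g2 against g1. Without g1 replicate 3 the g1 calls were 1249, and without g2 replicate 2 the g2 calls were 1501. Without g1 replicate 1 or 2 the calls of g2 against g1 were 267 and 314. The share of calls that were lower went from 57.5% to 69.4% with library totals, 71.9% on RPM, 67.8% on TPM and 67.6% with glmTreat in g1 and g2 together. It went from 54.9% to 73.3%, 76.3% and 76.3% in g2 and from 68.7% to 83.4%, 84.8% and 89.9% in g2 against g1, with library totals, RPM and TPM. Library totals moved the median of all genes in g2 by -0.16. With no filter beyond 1 count, edgeR also called ANXA9, PEF1, CPNE7 and FER1L6 in g1 and g2 together, in the same directions. Depth limits ANXA1, ANXA6, ANXA8 and ANXA10, at 27 counts or fewer in any library.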
